A study of Mus musculus with 2 samples.

Results

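Prostaglandins are short-lived lipid signals made from arachidonic acid, and 8 genes of their synthesis, breakdown, uptake and sensing were followed in mouse lung cells: Ptgs1, Ptgs2, Ptgis, Ptges, Hpgd, Slco2a1, Ptgir and Ptger4. They were chosen by gene symbol, with earlier results of these data known, and all 8 were found among the 31053 genes of the count matrices. Because of that choice, their levels are a description and no test was made of them. Lungs of C57/B6 mice aged 2 to 4 months were digested with enzymes, cells binding CD45 or CD326 beads were removed, and the remaining cells were sequenced by the 10x Chromium 3′ method, where unique molecular identifiers (UMIs) tell captured transcripts apart. There was 1 normoxia library and 1 hypoxia library, the latter after 3 weeks at 10% inspired oxygen. No transgene is named in the labels of these libraries. The study's text names more than 1 animal for the hypoxia cells, but no cell carries an animal label, so every difference compares 2 libraries, without a replicate.

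After filtering, 1348 normoxia cells with 5173361 UMIs and 689 hypoxia cells with 2294966 UMIs were kept, with a median of 3453 and 2224 UMIs per cell. Cells were clustered without the 8 genes, and clusters were named from marker lists as endothelial cell (EC)-like, fibroblast-like, pericyte-like, alveolar type 1 (AT1)-like and so on. EC-like cells numbered 893 and 567. They held 598 and 116 general capillary (gCap)-like, 124 and 62 aerocyte-like, 22 and 16 arterial-like, 63 and 21 venous-like, and 11 and 5 lymphatic-like cells. A pair of EC clusters led by Ntrk2 held 11 normoxia and 275 hypoxia cells. With 1 library per condition, a cell type of its own and a difference of the hypoxia library cannot be told apart for these cells. In hypoxia these cells held the general capillary markers at 9987 CPM, against 10916 CPM in gCap-like and 3514 CPM in aerocyte-like cells. With subtypes taken cell by cell, 674 normoxia and 347 hypoxia cells counted as gCap-like. A further 62 normoxia and 68 hypoxia EC-like cells, 4.60% and 9.87% of the cells of their libraries, stayed without a subtype because of a score threshold set after the data were seen. The 8 EC markers summed to 10360 CPM in normoxia and 10756 CPM in hypoxia EC-like cells, against 324 and 1699 CPM in fibroblast-like cells. Of the barcodes deposited, 1 was shared by both libraries, and it was not among the kept cells. Levels are given as counts per 1000000 UMIs of a cell group (CPM), with 95% intervals from the exact Poisson distribution, and ratios of levels carry exact conditional binomial 95% intervals. These intervals cover counting error only.

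In this pathway the cyclooxygenases, encoded by Ptgs1 and Ptgs2, turn arachidonic acid into a common precursor. Ptgs1 is the form most cells use at rest, whereas Ptgs2 is switched on by inflammation, flow and growth signals, and also by tissue dissociation. Prostacyclin synthase (Ptgis) makes prostacyclin, a dilator of lung vessels, and the inducible prostaglandin E synthase (Ptges) makes prostaglandin E2. Prostaglandins passing through the lung are taken up by the transporter encoded by Slco2a1 and inactivated by hydroxyprostaglandin dehydrogenase (Hpgd). Ptgir is the receptor of prostacyclin, and Ptger4 is a receptor of prostaglandin E2. On GRCm38 (GENCODE vM21) Ptgs2 lies on the plus strand at chr1:150100031-150108227 with 10 exons, Hpgd on the plus strand at chr8:56294585-56321043 with 7 exons, and Slco2a1 on the plus strand at chr9:102988712-103096002 with 14 exons. Ptgs1 lies at chr2:36230426-36252272 (plus), Ptgis at chr2:167191805-167240604 (minus), Ptges at chr2:30889471-30929863 (minus), Ptgir at chr7:16906490-16910905 (plus) and Ptger4 at chr15:5206661-5244187 (minus). Counts are per gene and come from the 3′ end of transcripts, so isoforms and single exons were not told apart.

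Of the 8 genes, 7 had a promoter window in the RefSeq table (GRCm38.p6), Ptgis being the other. Stretches of 3 promoters are shown, for Ptgs2 and Hpgd because their levels differed most between the libraries among genes with many UMIs, and for Slco2a1 because its level differed least. Each runs from 120 bases before the RefSeq start of transcription to 30 bases from it, 5′ to 3′ on the plus strand, at chr1:150099911-150100060, chr8:56294432-56294581 and chr9:103008367-103008516. The RefSeq start used for Slco2a1 lies inside the GENCODE gene, downstream of its first base at chr9:102988712, so this stretch is not upstream of that gene's first base. Capitals mark ACGTG or GCGTG (the core of the hypoxia response element), CACGTG (an E-box), ACGTCA and TTGCGCAA, each searched on both strands.
Ptgs2: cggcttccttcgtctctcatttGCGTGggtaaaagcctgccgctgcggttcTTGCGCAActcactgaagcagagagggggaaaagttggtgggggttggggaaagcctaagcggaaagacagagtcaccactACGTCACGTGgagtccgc
Hpgd: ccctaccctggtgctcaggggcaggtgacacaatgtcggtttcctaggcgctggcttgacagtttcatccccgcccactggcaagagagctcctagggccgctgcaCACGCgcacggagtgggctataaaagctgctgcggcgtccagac
Slco2a1: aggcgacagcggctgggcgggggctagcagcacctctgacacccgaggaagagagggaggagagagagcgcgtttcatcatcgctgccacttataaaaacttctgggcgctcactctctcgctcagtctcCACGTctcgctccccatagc

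The 300-base window of Ptgs2 held all 4 motifs, with ACGTCA and CACGTG overlapping in one run, and CACGTG itself holds ACGTG on each strand. The windows of Hpgd and Slco2a1 each held 1 match of the hypoxia response core and none of the other motifs. That core is common: at least 1 match stood in 43.8% of all 32851 mouse promoter windows of this length. CACGTG stood in 7.15% of them, ACGTCA in 7.51% and TTGCGCAA in 0.183%. These matches describe letters only and say nothing of binding.

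Of the synthesis genes, Ptgs1 and Ptgs2 had their highest EC levels in venous-like cells, and Ptgis and Ptges had higher levels in fibroblast-like than in EC-like cells. Ptgs1 stood at 289 CPM (233 to 354) in venous-like cells of the normoxia library, where 36 of 63 cells held a UMI. Its level was 70.0 CPM (59.7 to 81.6) in gCap-like, 16.3 (1.97 to 58.8) in arterial-like and 7.09 (2.30 to 16.5) in aerocyte-like cells. The venous-like level was 5.45 times that of all other EC-like cells (4.19 to 7.04). The more numerous gCap-like cells held 163 of the 340 normoxia UMIs, and venous-like cells held 93. With each cell thinned to 1000 UMIs, an expected 22.6% of venous-like cells (12.9 to 35.0) would hold Ptgs1, against 5.99% of gCap-like cells, and no UMI was seen in the 19 cells of the normoxia leukocyte cluster. In platelet-like cells, a shallow group of 18 normoxia cells, 9 UMIs gave 239 CPM (109 to 454).

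In the hypoxia library Ptgs1 again had its highest EC level in venous-like cells, 312 CPM (207 to 450), with UMIs in 15 of 21 cells. The hypoxia/normoxia ratio there was 1.08 (0.680 to 1.66), so no difference was detectable at this depth. In gCap-like cells 163 normoxia UMIs gave 70.0 CPM against 24.7 CPM from 8 hypoxia UMIs, with a ratio of 0.352 (0.149 to 0.710). The gCap-like cells of the libraries lay mostly in different clusters, and 7 of those 8 UMIs were in the cluster led by Gm26917 and Gm29237, where 4 normoxia UMIs gave 39.3 CPM and the hypoxia level was 44.9 CPM. Over all EC-like cells the ratio was 0.499 (0.382 to 0.646). It was 0.618 (0.423 to 0.884) without clusters mostly of 1 library. Stratified over the 6 clusters where each library had 10 or more cells it was 0.846 (0.577 to 1.24).

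**Figure D1:**
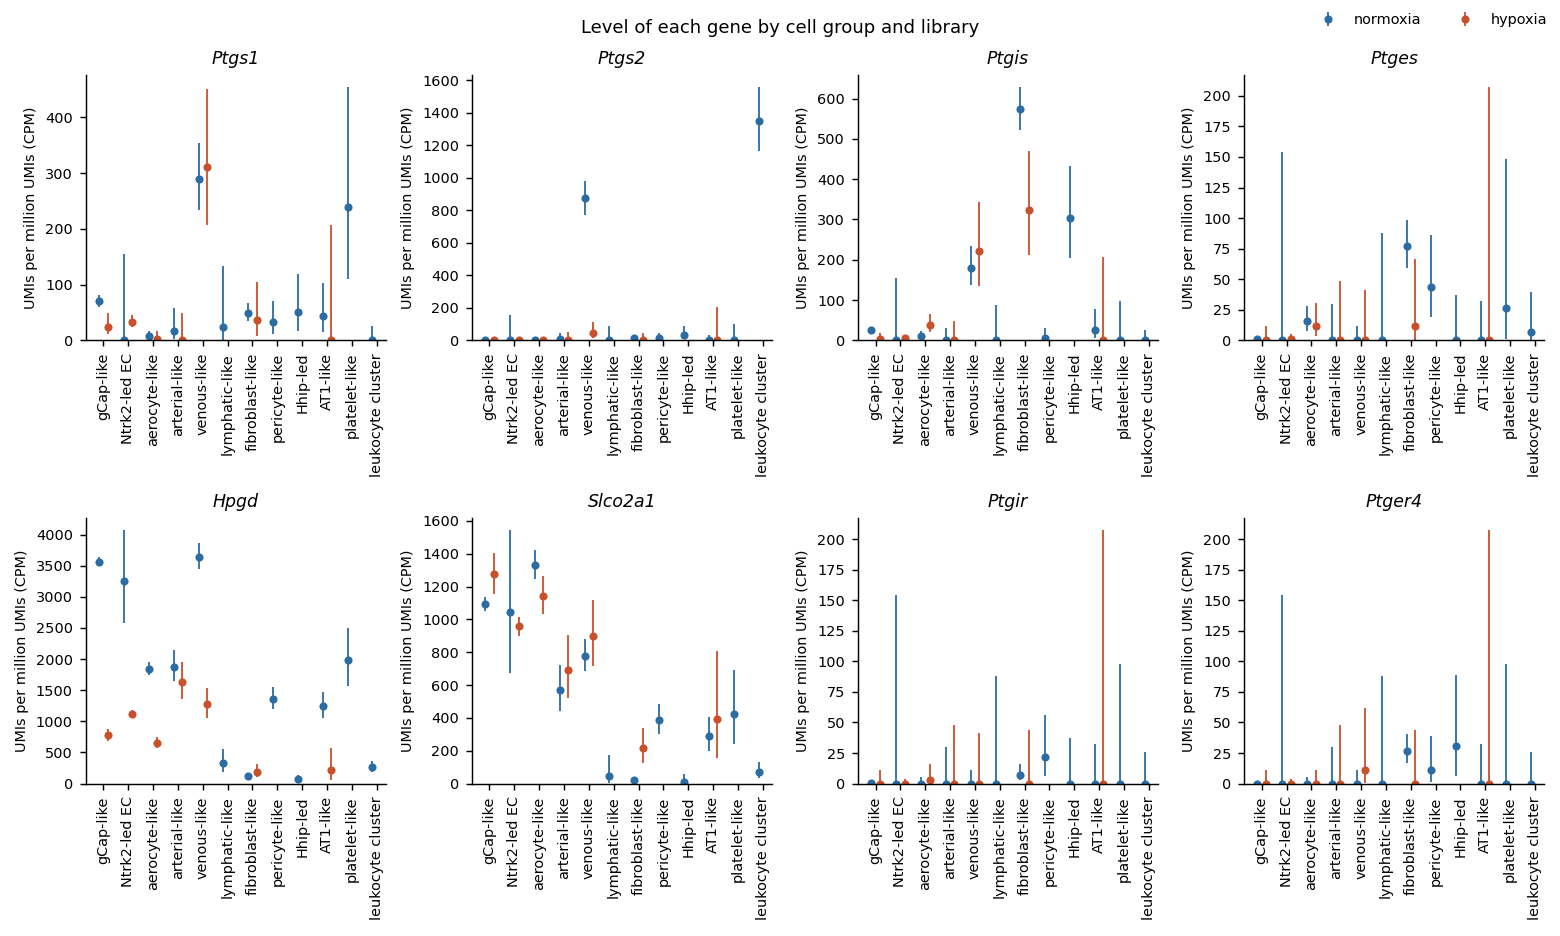
Level of each gene (CPM, linear axes from 0, each panel with its own range) by cell group, with normoxia in blue and hypoxia in red, for groups with at least 10 cells of the library, and lines giving exact Poisson 95% intervals. Ptgs1 and Ptgs2 stand highest among EC-like groups in venous-like cells, Ptgis and Ptges highest in normoxia fibroblast-like cells, Hpgd and Slco2a1 in EC-like cells, and the long lines at 0 belong to groups with few UMIs.

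Ptgs2 was detected in fewer cells than Ptgs1 but reached high counts in some of them. In the normoxia library 502 UMIs were found, of which 281 were in venous-like cells and 190 in the leukocyte cluster. The venous-like level was 873 CPM (774 to 981), from 21 of 63 cells. The 598 gCap-like cells held no Ptgs2 UMI, which allows a level of up to 1.29 CPM (3 counts), and aerocyte-like and arterial-like cells held 1 UMI each. All 21 positive venous-like cells lay in the cluster led by Slc6a2, Prss23 and Vwf, and none in the second, shallower venous-like cluster of 10 normoxia cells. Within the positive cells the counts ran from 1 to 98 UMIs, and the 5 highest cells held 81.5% of the venous-like UMIs. Without cells holding at least 2 markers of another class, the level of the remaining 34 normoxia cells was 1445 CPM (1262 to 1648).

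In the hypoxia library venous-like cells held 4 Ptgs2 UMIs in 3 of 21 cells, or 44.5 CPM (12.1 to 114), against 873 CPM in normoxia. The ratio was 0.0510 (0.0138 to 0.132), the lowest of the 5 ratios those cells gave. Without the 5 normoxia cells with most Ptgs2 UMIs it was 0.240 (0.0630 to 0.652). Venous-like cells held 4.67% of the kept normoxia cells and 3.05% of the kept hypoxia cells.

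Ptgs2 answers to tissue dissociation, and immediate-early genes, which respond to it within minutes, differed in the same direction. Summed over 16 of them, such as Fos, Jun and Egr1, venous-like cells stood at 32962 CPM in normoxia against 10820 CPM in hypoxia, with a ratio of 0.328 (0.307 to 0.351). All 16 had a ratio below 1 there, with the interval below 1 for 14. In normoxia venous-like cells the summed level was 42701 CPM in the 21 cells with a Ptgs2 UMI and 25712 CPM in the 42 without, which also differed in depth, with a median of 6225 and 4394 UMIs. In hypoxia the order was the other way, 5023 CPM in 3 cells with and 12013 CPM in 18 cells without. Restricted to cells at or below the normoxia median of the immediate-early level, 32 normoxia cells held 41 Ptgs2 UMIs and 19 hypoxia cells held 4, a ratio of 0.184 (0.0478 to 0.507). Of the 41 UMIs, 25 lay in 1 cell. The immediate-early level of the restricted cells still differed, at 6892 CPM in normoxia against 4651 CPM in hypoxia.

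A high immediate-early level went without Ptgs2 in capillary cells. The gCap-like cluster led by Ier3 stood at 41797 CPM of the immediate-early list in 168 normoxia cells, above the 34111 CPM of the Slc6a2-led venous-like cluster, and held no Ptgs2 UMI. The gCap-like cluster led by Socs3 and Ier3 stood at 37445 CPM in normoxia (97 cells) and 34372 CPM in hypoxia (22 cells), again with no Ptgs2 UMI in either. Among fibroblast-like clusters, the small one led by Dcn and C4b held 13 Ptgs2 UMIs in 2 of 14 normoxia cells at 35269 CPM of the list, and the one led by Pdgfra and Npnt held none in 83 cells at 26139 CPM. The part of dissociation in the Ptgs2 difference between the libraries was not tested.

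**Figure D2:**
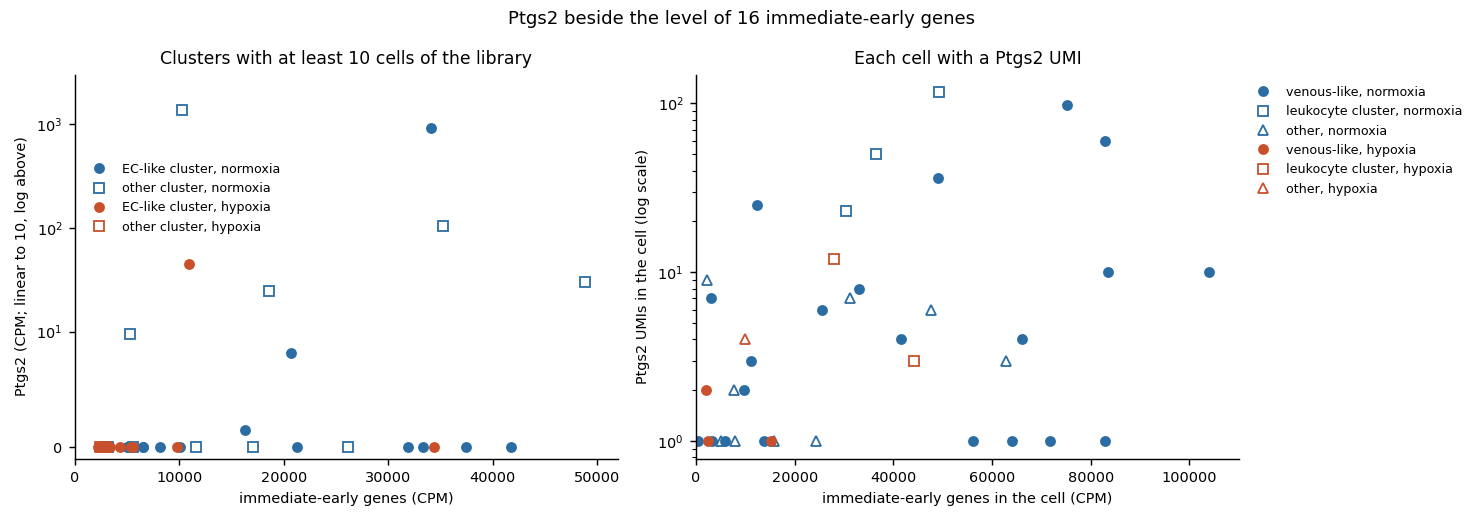
Ptgs2 against the summed level of 16 immediate-early genes. Left, one point per cluster and library (at least 10 cells), Ptgs2 in CPM on an axis linear to 10 and logarithmic above. Right, one point per cell with a Ptgs2 UMI, on a log axis. EC-like clusters at 31940 to 41797 CPM of the immediate-early genes in normoxia include 4 gCap-like ones without a Ptgs2 UMI beside the venous-like one at 913 CPM.

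Ptgis was foremost a fibroblast transcript. Fibroblast-like cells of the normoxia library held 470 of its 635 UMIs, at 574 CPM (523 to 628), 16.1 times the EC-like level (13.2 to 19.7). It was present in all 3 fibroblast-like clusters, at 425 CPM in the one led by Gpx3 and Mgp, 585 CPM in the Pdgfra- and Npnt-led one and 656 CPM in the Dcn- and C4b-led one. The Hhip-led mesenchymal cluster stood at 304 CPM (205 to 434), whereas pericyte-like cells held 1 UMI, or 5.45 CPM. Among EC-like cells, venous-like cells led with 180 CPM (137 to 233). Arterial-like and lymphatic-like cells held none.

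Between the libraries, Ptgis in venous-like cells stood at 180 CPM in normoxia against 223 CPM (136 to 344) in hypoxia, with a ratio of 1.24 (0.704 to 2.08). In gCap-like cells it was 26.2 CPM from 61 UMIs and 3.08 CPM from 1 UMI, a ratio of 0.118 (0.00293 to 0.680). In aerocyte-like cells it was 11.3 CPM from 8 UMIs and 38.3 CPM from 13 UMIs in 5 cells, a ratio of 3.37 (1.30 to 9.39). The ratio over all EC-like cells was 0.546 (0.373 to 0.784), but stratified by cluster it was 1.28 (0.844 to 1.93). In fibroblast-like cells the ratio was 0.563 (0.367 to 0.830). There the hypoxia library was thin, with 29 of its 34 cells in the shallow Gpx3- and Mgp-led cluster against 87 of 184 in normoxia, and within that cluster the ratio was 0.324 (0.124 to 0.720). The Pdgfra- and Npnt-led cluster held 18 of the 27 hypoxia UMIs in 4 cells, at 672 CPM against 585 CPM in normoxia.

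Ptges was sparse, with 88 UMIs in normoxia and 6 in hypoxia. Fibroblast-like cells held 63 of the 88, at 76.9 CPM (59.1 to 98.4), and 46 of these lay in the Npnt-led cluster of 83 cells, at 78.9 CPM. The Dcn- and C4b-led cluster held 13 in 14 cells, at 105 CPM. Pericyte-like cells stood at 43.6 CPM (18.8 to 85.8). All 8 of their UMIs lay in the cluster led by Pdgfrb and Spp1, at 66.4 CPM, and none in the one led by Spp1 and Ndufa4l2. In EC-like cells most UMIs lay in aerocyte-like cells, with 11 of 14 normoxia UMIs and 4 of 5 hypoxia UMIs. The aerocyte-like level was 15.6 CPM (7.78 to 27.9) in normoxia and 11.8 CPM (3.21 to 30.1) in hypoxia, and no venous-like cell held a UMI in either library. Of the 44 normoxia fibroblast-like cells with Ptges, 41 also held Ptgis. Both counts rise with the depth of a cell.

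Hpgd, the breakdown enzyme, had the most UMIs of the 8 genes in normoxia, 12284, and 2073 in hypoxia, where Slco2a1 had 2158. In normoxia 11311 of them were in EC-like cells, at 3124 CPM (3067 to 3183). By subtype the order was venous-like at 3648 CPM (3442 to 3862) and gCap-like at 3565 CPM (3489 to 3643), which did not differ beyond counting error, then arterial-like at 1880 CPM (1646 to 2139) and aerocyte-like at 1846 CPM (1747 to 1949), which did not either. Lymphatic-like cells stood far lower, at 335 CPM (183 to 562). Thinned to 1000 UMIs, an expected 84.0% of normoxia EC-like cells (81.3 to 86.5) would hold Hpgd, and 93.1% did without thinning. The same shares in the normoxia leukocyte cluster were 16.7% and 21.1%. Median depths were 3783 UMIs for EC-like and 4685 UMIs for leukocyte cells. The 37 Hpgd UMIs of that cluster lay in 4 of its 19 normoxia cells, with up to 15 in a cell. Whether those cells expressed Hpgd or held RNA of EC was not tested.

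The Hpgd level of EC-like cells in hypoxia was 973 CPM (931 to 1017), which gave a ratio of 0.311 (0.297 to 0.327). In gCap-like cells 3565 CPM stood against 774 CPM in hypoxia, with a ratio of 0.217 (0.191 to 0.246). In aerocyte-like cells it was 1846 and 650 CPM, a ratio of 0.352 (0.304 to 0.407). In venous-like cells it was 3648 and 1280 CPM, a ratio of 0.351 (0.287 to 0.425). In arterial-like cells it was 1880 and 1635 CPM, a ratio of 0.869 (0.694 to 1.09). That ratio was 0.743 (0.602 to 0.910) at a finer clustering, where a second cluster, led by Esm1 and Lpl, was also named arterial-like. That second cluster held 22 normoxia and 5 hypoxia cells. In cells with a low immediate-early level the arterial-like ratio was 0.564 (0.437 to 0.728). The venous-like ratio in such cells was 0.373 (0.300 to 0.460), with an overlapping interval. The Ntrk2-led EC, which held 275 of the 567 hypoxia EC-like cells, stood at 1112 CPM (1050 to 1176). Per cell, the median was 2.97 Hpgd UMIs per 1000 in gCap-like cells of normoxia (quartiles 1.55 and 4.70) and 0.464 in hypoxia (quartiles 0 and 1.10). The quartile ranges did not overlap in gCap-like cells.

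Immediate-early genes were lower in hypoxia as well, from 25959 to 17502 CPM in gCap-like cells, from 15664 to 9227 CPM in aerocyte-like cells and from 20732 to 5336 CPM in arterial-like cells, and the part of dissociation in the Hpgd difference was not tested. In cells at or below the normoxia median of that level, the Hpgd ratio was 0.176 (0.149 to 0.208) in gCap-like and 0.293 (0.242 to 0.354) in aerocyte-like cells. The summed level of heat-shock genes went the other way in these subtypes. It rose from 3289 CPM in normoxia to 4549 CPM in hypoxia in gCap-like cells. There the genes did not all move together, since Dnajb1 had a ratio of 0.723 (0.537 to 0.955) and the other genes of the list had ratios above 1. In aerocyte-like cells the sum rose from 2472 to 4844 CPM, and in arterial-like cells from 2678 to 3335 CPM. In venous-like cells it was lower in hypoxia, at 2460 against 3728 CPM. There Hspa1a had a ratio of 0.341 (0.234 to 0.483) and Hspa1b of 0.283 (0.180 to 0.425). The other genes of the list had ratios above 1 in venous-like cells, with intervals that include 1.

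The Hpgd difference was present within clusters. In 6 EC-like clusters each library had 10 or more cells, and all 6 had a lower Hpgd level in hypoxia, with ratios from 0.209 to 0.869, and the interval lay below 1 in 5, the arterial-like cluster being the other. The gCap-like cells of the 2 libraries lay mostly in different clusters, since 77 of 116 hypoxia cells were in one led by the noncoding transcripts Gm26917 and Gm29237. Within that cluster Hpgd stood at 2142 CPM in normoxia against 661 CPM in hypoxia, with a ratio of 0.308 (0.242 to 0.392). Within the Socs3- and Ier3-led gCap-like cluster, with immediate-early genes at 37445 and 34372 CPM, the ratio was 0.209 (0.166 to 0.261). When cells with up to 10% mitochondrial UMIs were kept and clustered anew, the gCap-like ratio was 0.131 (0.0964 to 0.174). No gCap-like cluster then held more than 13 hypoxia cells. An Ntrk2-led cluster with Gm26917 among its leading genes held 85, so this ratio compares a different set of hypoxia cells.

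Slco2a1, the prostaglandin transporter, was an EC transcript too, with 3897 of 4125 normoxia UMIs in EC-like cells. Its subtype order was not that of Hpgd. Aerocyte-like cells led in normoxia with 1333 CPM (1249 to 1420), followed by gCap-like cells with 1095 CPM (1053 to 1138), venous-like cells with 777 CPM (683 to 879) and arterial-like cells with 570 CPM (444 to 720). Neighbours in this order differed beyond counting error, with ratios of 1.22 (1.13 to 1.31) for aerocyte-like over gCap-like, 0.709 (0.620 to 0.808) for venous-like over gCap-like and 0.734 (0.554 to 0.960) for arterial-like over venous-like cells. Lymphatic-like cells held 2 UMIs. In hypoxia gCap-like cells stood at 1276 CPM and aerocyte-like cells at 1145 CPM, with a ratio of aerocyte-like over gCap-like of 0.897 (0.779 to 1.03). Thinned to 1000 UMIs, an expected 62.2% of normoxia EC-like cells (58.7 to 65.5) would hold Slco2a1 against 57.8% in hypoxia (53.1 to 62.3), and 5.56% of cells in the normoxia leukocyte cluster.

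Slco2a1 differed little between the libraries, at 1076 CPM against 1011 CPM (968 to 1055) in hypoxia over EC-like cells, with a ratio of 0.939 (0.890 to 0.991), or 1.03 (0.951 to 1.11) without clusters mostly of 1 library. In gCap-like cells the ratio was 1.17 (1.05 to 1.29), but it was 0.957 (0.896 to 1.02) when subtypes were assigned cell by cell and 0.941 (0.882 to 1.00) with the Ntrk2-led EC counted as gCap-like, so its direction was not settled. In aerocyte-like cells it was 0.859 (0.761 to 0.968), from 1333 and 1145 CPM. In venous-like cells it was 1.16 (0.892 to 1.5) and in arterial-like cells 1.22 (0.835 to 1.76), the latter 0.830 with up to 10% mitochondrial UMIs. The uptake gene and the breakdown gene thus stood apart in the same cells, with an Hpgd ratio of 0.217 beside a Slco2a1 ratio of 1.17 in gCap-like cells. With the Ntrk2-led EC counted as gCap-like, the ratios were 0.290 for Hpgd and 0.941 for Slco2a1.

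**Figure D3:**
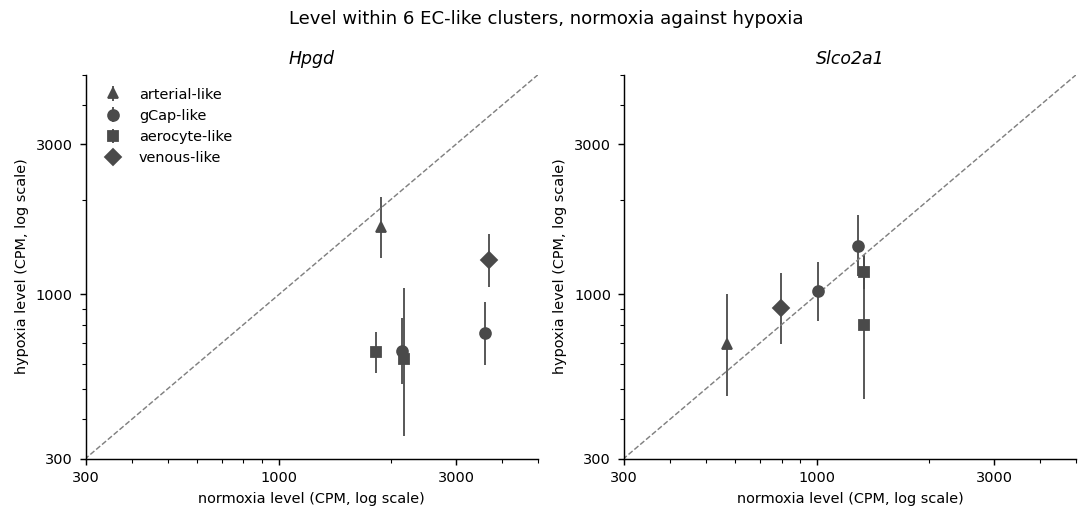
Level of Hpgd and Slco2a1 in the hypoxia library against the normoxia library (CPM, log axes) within 6 EC-like clusters, with bars giving the 95% interval of the ratio placed on the hypoxia level and the dashed line marking equal levels. All 6 Hpgd points lie below the line, the arterial-like one nearest to it, and Slco2a1 points lie on both sides, with ratios from 0.596 to 1.22.

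Outside the EC-like cells, Hpgd and Slco2a1 were set beside markers of EC. In normoxia 30.2 Hpgd UMIs were counted per 100 UMIs of 8 EC markers in EC-like cells. Intervals of such values are Poisson intervals of the Hpgd or Slco2a1 UMIs, and leave out the counting error of the EC marker UMIs. The value was 37.0 (30.0 to 45.1) in fibroblast-like, 40.0 (35.2 to 45.2) in pericyte-like and 46.1 (38.9 to 54.3) in AT1-like cells, although their levels of EC markers ran from 324 to 3420 CPM against 10360 CPM in EC-like cells. In hypoxia it was 9.05 in EC-like, 11.3 (6.44 to 18.3) in fibroblast-like and 7.55 (2.06 to 19.3) in AT1-like cells. For Slco2a1 the values were 10.4 per 100 in EC-like cells of normoxia, 7.55 (4.61 to 11.7) in fibroblast-like, 11.3 (8.83 to 14.3) in pericyte-like and 10.6 (7.33 to 14.9) in AT1-like cells. Alveolar type 2-like cells stood apart, with 11 Slco2a1 UMIs in 3 of 8 hypoxia cells, or 183 (91.5 to 328) per 100 EC marker UMIs against 9.40 in hypoxia EC-like cells. That value rests on 6 EC marker UMIs, so its true interval is wider. In normoxia Hpgd stood at 1254 CPM in AT1-like and 1367 CPM in pericyte-like cells. In hypoxia it stood at 225 CPM in AT1-like cells, from 4 UMIs, and the pericyte-like clusters held only 3 and 1 cells. The normoxia pericyte-like clusters differed. The one led by Spp1 and Ndufa4l2 had 2958 CPM of Hpgd beside 7845 CPM of EC markers, and the one led by Pdgfrb and Spp1 had 532 CPM beside 1096 CPM. Whether those cells expressed it or held RNA of EC was not tested. Slco2a1 in fibroblast-like cells was higher in hypoxia, 215 against 24.4 CPM, beside EC markers at 1699 against 324 CPM. Within the Gpx3- and Mgp-led cluster, which held 29 of the hypoxia cells, it was 335 against 106 CPM. The ratio there was 3.15 (1.42 to 7.22), beside EC markers at 2718 against 1294 CPM.

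**Figure D4:**
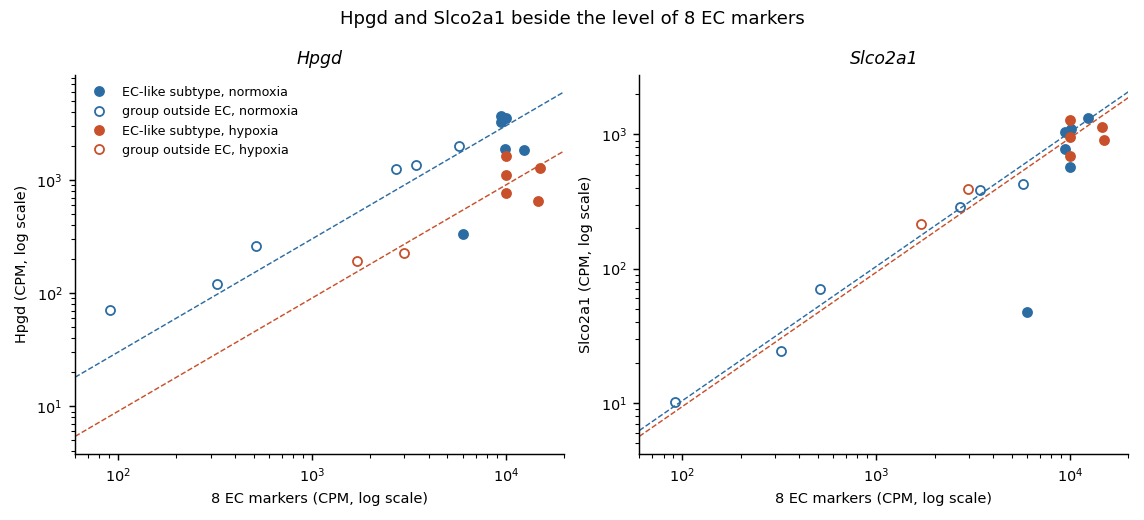
Hpgd and Slco2a1 against the summed level of 8 EC markers (CPM, log axes), one point per cell group with at least 10 cells of the library, filled for EC-like subtypes and open for groups outside EC, with dashed lines at the ratio of all EC-like cells in each library. Most open points rise with the EC markers, beside Hpgd lines at 30.2 and 9.05 UMIs per 100 EC marker UMIs, and the filled point far below is the normoxia lymphatic-like group.

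The receptors were at the edge of detection. Ptgir gave 11 UMIs in normoxia and 1 in hypoxia, of which 6 were in normoxia fibroblast-like cells (7.33 CPM, 2.69 to 15.9). Normoxia pericyte-like cells held 4 (21.8 CPM, 5.94 to 55.8), each in a different cell. All 4 lay in the cluster led by Pdgfrb and Spp1, at 33.2 CPM. EC-like cells held 1 UMI per library. Ptger4 gave 27 and 5 UMIs, with 22 in normoxia fibroblast-like cells (26.9 CPM, 16.8 to 40.7), 17 of them in the Npnt-led cluster, at 29.2 CPM. The Dcn- and C4b-led cluster held 5 of the 22, at 40.5 CPM. The Hhip-led cluster held 3 UMIs in 3 of 16 cells. In hypoxia 4 of the 5 Ptger4 UMIs came from 1 cell of the leukocyte cluster and 1 from a venous-like cell. No ratio between the libraries is given for either receptor, because a difference was not detectable at this depth.

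Read against all genes, 5 of the 8 had at least 20 UMIs in EC-like cells, and 4 of these 5 (Ptgs1, Ptgs2, Ptgis and Hpgd) were lower by 1.5-fold or more in hypoxia. Of all 10477 genes with that many UMIs, 12.5% were lower by that much and 9.64% were higher. The median ratio was 0.499 over the 5 members and 1.01 over all genes. In gCap-like cells 3 of 4 members with enough UMIs were lower by that fold (Ptgs1, Ptgis and Hpgd), against 17.6% of 9073 genes. In aerocyte-like cells Hpgd alone of 3 was, against 15.4% of 6460 genes, and in venous-like cells Ptgs2 and Hpgd of 5 were, against 18.3% of 3735 genes. As the genes were chosen with these data known, nothing is read from these counts. In EC-like cells 239 of the 10477 genes had a lower ratio than Hpgd and 11 had a lower one than Ptgs2.

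**Figure D5:**
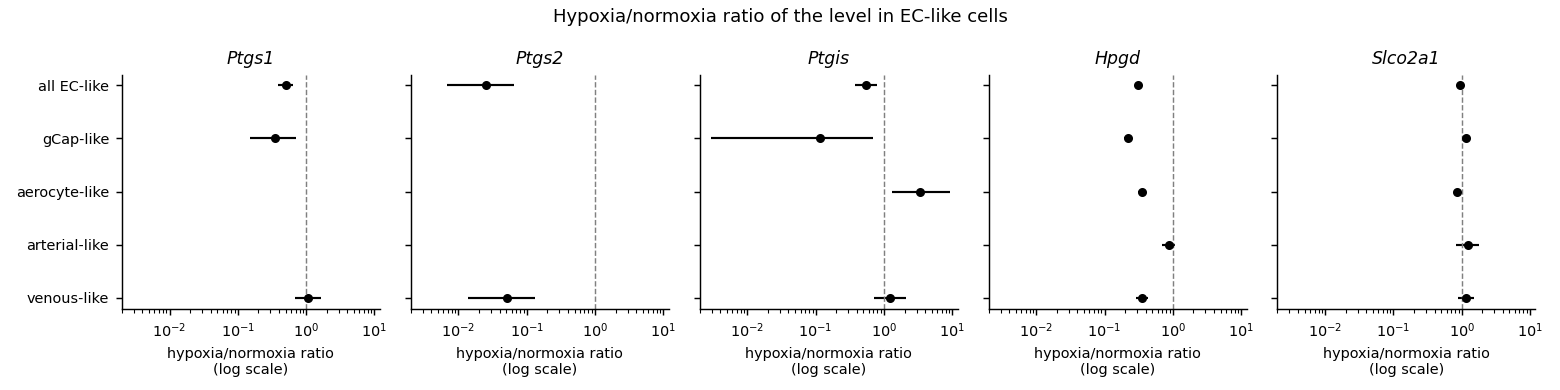
Hypoxia/normoxia ratio of the level (log axis) with exact conditional binomial 95% intervals, for genes and EC-like groups with at least 20 UMIs and at least 1 in hypoxia, with the dashed line at 1. Hpgd lies at 0.217 to 0.352 in gCap-like, aerocyte-like and venous-like cells and at 0.869 in arterial-like cells, Slco2a1 stays near 1, and Ptgs1 and Ptgis lie at 1.08 and 1.24 in venous-like cells.

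Other genes of the pathway were read from a list of 31, of which 30 were in the matrices and 15 had at least 20 UMIs in EC-like cells. Of those 15, 3 were lower and 2 higher by 1.5-fold or more, with a median ratio of 1.04. Pla2g4a, the phospholipase that frees arachidonic acid for the cyclooxygenases, had 33 of its 39 normoxia EC-like UMIs in venous-like cells. Its level there was 103 CPM (70.6 to 144) in normoxia and 100 CPM (45.8 to 190) in hypoxia, and gCap-like and aerocyte-like cells of normoxia held none. Tbxa2r, the thromboxane receptor, stood highest among EC-like subtypes in aerocyte-like cells, at 113 CPM (89.9 to 141) in normoxia and 91.2 CPM (62.0 to 130) in hypoxia, against 10.3 CPM in gCap-like cells. Hsd11b1, which was listed with the pathway though it acts on glucocorticoids, stood at 1592 CPM in fibroblast-like and 806 CPM in pericyte-like cells. Its EC-like ratio of 0.121 (0.0320 to 0.328) rested on 58 and 4 UMIs.

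Ptgfrn, a regulator of the prostaglandin F receptor, was the most abundant of the other genes in EC-like cells, at 264 CPM in normoxia against 372 CPM in hypoxia, with a ratio of 1.41 (1.28 to 1.55). Ptges3, a cochaperone that also makes prostaglandin E2, stood at 218 and 243 CPM, with a ratio of 1.11 (0.991 to 1.24). Ptges2, a further prostaglandin E synthase, had a ratio of 1.87 (1.12 to 3.13) from 32 and 34 UMIs. The enzymes Akr1b3 (0.862, 0.712 to 1.04), Cbr1 (0.824, 0.625 to 1.08) and Ptgr2 (1.06, 0.703 to 1.57), the phospholipases Pla2g12a (1.04, 0.766 to 1.42) and Pla2g4a (0.542, 0.258 to 1.06), and Tbxa2r (0.911, 0.654 to 1.26) had intervals that include 1. In the Hhip-led cluster Ptger2, another prostaglandin E2 receptor, gave 9 UMIs in 6 of 16 cells, and in platelet-like cells the highest of the list was Pla2g12a, with 8 UMIs at 213 CPM.

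In normoxia, venous-like cells held Pla2g4a, Ptgs1, Ptgs2 and Ptgis at 103, 289, 873 and 180 CPM. The gCap-like levels were 0, 70.0, 0 and 26.2 CPM. Of the venous-like Ptgs2 UMIs, 81.5% lay in 5 cells. Of the 21 venous-like normoxia cells with Ptgs2, 14 held Ptgs1 and 14 held Ptgis, against 12 and 9.33 expected if the genes were unrelated across the 63 cells. The cells with Ptgs2 were also the deeper ones. In hypoxia 3 of these 4 genes kept ratios of 0.977 to 1.24 with intervals around 1, and Ptgs2 stood at 0.0510.

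Over 7 cell groups of the normoxia library with at least 20 cells, the genes whose log2(CPM + 10) profile was most like that of Hpgd were Tspan7, Cyyr1 and Spns2, with Pearson's r of 0.990, 0.990 and 0.988. For Slco2a1 they were Slfn5, Ehd4 and Casz1, with 0.9996, 0.993 and 0.990. For Ptgs1 they were Lbp, Ncoa7 and Rcan1 (0.958, 0.946 and 0.942), for Ptgs2 Slc6a2, S100a10 and Mustn1 (0.95, 0.947 and 0.930), and for Ptgis Cblb, Csnk1g3 and Mmp2 (0.963, 0.957 and 0.957). The 7 groups were gCap-like, aerocyte-like, arterial-like, venous-like, fibroblast-like, pericyte-like and AT1-like cells. The leukocyte cluster, where Ptgs2 stood at 1351 CPM, had 19 normoxia cells and was left out. Slc6a2 is also on the marker list that named the venous-like cells. The 7 points share 1 library, and the best of 4557 candidate genes were taken, so these values only describe a likeness.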

How the data were processed

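Per the labels and the file headers, the authors used Cell Ranger 6.1.2 on mm10, and the deposited values are raw UMI counts per gene and cell. The study's text names other releases. Barcodes numbered 2223 (7630683 UMIs) in normoxia and 809 (2685345 UMIs) in hypoxia. Kept cells had 200 to 4000 genes and no more than 5% mitochondrial UMIs, a limit that 835 normoxia and 107 hypoxia barcodes exceeded. Beyond the upper limit on genes, no doublet caller was run. Leiden clustering at resolution 2 used 2000 variable genes chosen across both libraries, 30 components and 15 neighbours, after scaling each cell to 10000 and taking logs. The 8 genes, the other pathway genes and 2 hypoxia-inducible factors (Epas1, Hif1a) were barred from the variable genes. There were 29 clusters. Tools were scanpy 1.11.5, python 3.11.15, igraph 0.11.9, pandas 2.3.3, numpy 2.4.6, anndata 0.12.19, matplotlib 3.10.9 and scipy 1.17.1.

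Names came from marker lists, with the exceptions below. Clusters with under 3 detected markers, or shallow ones that no own marker led, got no name (119 normoxia and 56 hypoxia cells), and EC subtypes needed a score of 0.5. The Ntrk2-led EC clusters, with scores of 0.315 and 0.357, and the Hhip-led and leukocyte clusters were named by their leading genes instead. The rule for the leukocyte cluster was set after that cluster was seen. These names are rebuilt and need not match the study's clusters. Members and lists were chosen with earlier results of these data known. All 8 members are named, and other pathway genes with at least 50 UMIs in EC-like cells or among the 3 highest of a class. The joint statement on Pla2g4a, Ptgs1, Ptgs2 and Ptgis was made after their values were seen. Similar genes had at least 200 normoxia UMIs. A thinned share is the expected number of cells with a UMI, rounded, when cells of at least 1000 UMIs are drawn down to 1000 without replacement. The ratio intervals were tried on simulated Poisson counts without variation between cells or libraries, so that trial covers counting error only. Alternatives covered filters, resolution, variable genes, cell-by-cell assignment, scaling, means over cells, stratification, thinning and removal of cells.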

Additional observations from a re-analysis of the deposited data

Results flagged for a closer look

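A pair of genes had ratios on opposite sides of 1 in 2 EC-like subtypes, with an interval clear of 1 in each, which made them stand out. Ptgis, the prostacyclin synthase, had a hypoxia/normoxia ratio of 3.37 (1.30 to 9.39) in aerocyte-like cells, from 8 and 13 UMIs, and of 0.118 (0.00293 to 0.680) in gCap-like cells, from 61 UMIs and 1 UMI. The 13 hypoxia UMIs of the aerocyte-like cells lay in 5 cells. Slco2a1, the transporter, had a ratio of 1.17 (1.05 to 1.29) in gCap-like cells and of 0.859 (0.761 to 0.968) in aerocyte-like cells, and the former fell below 1 when the Ntrk2-led EC were counted as gCap-like. With 1 library per condition, neither difference between subtypes was tested.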

How the results depend on the processing

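No paired analysis was possible because there was 1 library per condition. Of 138 values under alternative settings, 104 stayed within the counting interval of the reported value and 34 left it. Ratios whose reported interval excluded 1 changed side in 4 cases: the Slco2a1 ratio in gCap-like cells (0.957 with subtypes taken cell by cell, 0.941 with the Ntrk2-led EC included), the Slco2a1 ratio in EC-like cells (1.03 without the 5 clusters mostly of 1 library) and the Ptgis ratio in EC-like cells (1.28 stratified by cluster, and 0.959, on the same side, without those clusters). Of ratios whose reported interval included 1, Ptgs1 in venous-like cells changed side to 0.825 with subtypes taken cell by cell and to 0.856 in cells with a low immediate-early level, and Slco2a1 in arterial-like cells to 0.830. The Ptgs1 ratio in EC-like cells was 0.846 stratified. The Hpgd ratio in EC-like cells was 0.348 stratified and 0.286 as a mean over cells. With up to 10% mitochondrial UMIs the cells were clustered anew, and no gCap-like cluster held more than 13 hypoxia cells. At this limit the Hpgd ratio in gCap-like cells was 0.131 and its normoxia level 3428 CPM. The Slco2a1 ratio in arterial-like cells was that 0.830, and the Ptgs2 level in venous-like cells was then 760 CPM. The immediate-early level of venous-like cells with Ptgs2 over those without was then 1.91 times. That ratio was 1.53 with heat-shock genes added. At resolution 1 the Ptgs2 level was 771 CPM, and at resolution 3 the Hpgd ratio in gCap-like cells was 0.189. Assigned cell by cell it was 0.275. Without cells holding at least 2 markers of another class, the venous-like Ptgs2 level was 1445 CPM and the aerocyte-like Slco2a1 level 1521 CPM.

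The thinned shares followed the depth chosen. Not thinned and thinned to 500 UMIs, the shares were 93.1% and 68.0% for Hpgd and 86.1% and 39.4% for Slco2a1 in EC-like cells, 57.1% and 12.7% for Ptgs1 in venous-like cells, and 64.1% and 21.2% for Ptgis in fibroblast-like cells. Ptgs2 in venous-like cells was at 33.3% not thinned. A further 3 alternatives were chosen after seeing the data. With the Ntrk2-led EC counted as gCap-like, the Hpgd ratio was 0.290. Without the 5 normoxia cells with most Ptgs2, the venous-like Ptgs2 ratio was 0.240. In cells up to the normoxia median immediate-early level it was 0.184, with 25 of the 41 normoxia UMIs in 1 cell. The Hpgd ratios in such cells were 0.176 in gCap-like, 0.293 in aerocyte-like and 0.564 in arterial-like cells. The cause of these shifts was not tested. Depth limits Ptgir, Ptger4 and Ptges most, and the 21 hypoxia venous-like cells limit every venous comparison.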

Other observations

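The highest Ptgs2 level of any group was in the leukocyte cluster, a remnant of cells that the CD45 beads should have removed. Its 190 normoxia UMIs came from 3 of 19 cells with 117, 50 and 23 UMIs, which gave 1351 CPM (1166 to 1558), and its 15 hypoxia UMIs came from 2 of 3 cells. These cells and the genes below were looked at after their values were seen. The 3 normoxia cells held 212 UMIs of Hdc, which makes histamine, against 5 in the 17 cells of the cluster without Ptgs2 and 23 in all 2015 other kept cells. They also held 679 UMIs of Ccl4 and 505 of Ccl3, both chemokines, and 14 of Cpa3, a granule protease. They held 10 of Ms4a2 and 12 of Fcer1a, which encode chains of the high-affinity IgE receptor. The 17 cells without Ptgs2 held 69 of Ccl4, 33 of Ccl3, 1 of Cpa3, 7 of Ms4a2 and 0 of Fcer1a. The lowest count in any of the 3 cells was 2 for Cpa3, 1 for Ms4a2 and 0 for Fcer1a. These 3 normoxia cells held no UMI of Cd79a, a B cell gene with 140 UMIs in the other cells of the cluster. Their immediate-early level was 40210 CPM, against 6519 CPM in the 16 normoxia cells of the cluster without Ptgs2.

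In the alveolar type 2-like cells, 9 normoxia Ptgs2 UMIs lay in 1 cell and 4 hypoxia UMIs in 1 cell. These cells held 1797 and 4140 UMIs of the alveolar type 2 marker list, and 169 and 259 of the macrophage list. The macrophage list includes Lyz2, which is also among the leading genes of the alveolar type 2-like cluster, so its count does not tell the 2 cell types apart.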
